A study of Mus musculus with 36 samples.

Results

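The genes described here are 50 collagens and other extracellular matrix genes of the mouse lung, followed across 36 RNA libraries after a single dose of graphene oxide. They were taken as a fixed list of names, of which 49 matched the gene names of the deposited tables and 1, Ccn2, matched through its older name Ctgf. They are 50 of the 46078 genes in the count table, and all 50 were among the 16903 genes with enough counts to be tested. By role, 6 are fibrillar collagens, 10 belong to basement membranes, 7 are other collagens, 12 belong to elastic fibres or crosslink matrix, 5 are proteoglycans and 10 are adhesive or matricellular proteins.

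The study asked whether the lateral size of graphene oxide sheets, thin flakes of oxidised carbon, matters for the lung. Wild type female C57BL/6 mice received 50 µg per mouse of ultrasmall (US), small (S) or large (L) sheets once through the nose, or the 5% dextrose carrier alone (D, 0 µg). Lung was taken at day 1, 7 or 28, at 9, 10 or 13 weeks of age, as small pieces of every lobe freed of large airways. Each of the 12 groups has 3 libraries (n = 3 throughout). The protocols speak of 4 to 5 animals in a group and no label says which animal gave which library, so the p-values below measure the spread among these libraries, which may be partly technical. All groups share the strain, sex and carrier, and the 3 sizes of a day share 1 D group, so their comparisons with D are not independent of one another.

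The extracellular matrix is the protein scaffold around cells. In the lung, fibrillar collagens give tensile strength to airway, vessel and septal walls, elastic fibres let the alveoli recoil, and the basement membrane carries epithelium on one face and capillary endothelium on the other across the thin wall where gas is exchanged. Fibroblasts, smooth muscle, endothelium and epithelium each make part of it, and lasting excess of fibrillar collagen is the hallmark of lung fibrosis, in which TGF-beta is the best known driver.

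Total counts were 16154696 to 23808264 in 35 libraries and 80566751 in S day 7 replicate 2, so 1 CPM (a count scaled to library size) stood for 16.2 to 23.8 counts in the 35. The tissue label was borne out by high levels of Sftpc, the surfactant protein of alveolar type 2 cells (18914 ± 1397 CPM in D at day 1, mean ± SD), of Ager of type 1 cells (2590.5 ± 68.6 CPM) and of Pecam1 of endothelium (974 ± 72.5 CPM). All 10 fibroblast markers examined were detected and tested. The 50 genes held 0.908 to 1.60% of all counts in a library, with a median of 1.32%. In whole tissue, fewer cells of a type and less RNA per cell cannot be told apart.

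Levels between genes were compared as TPM, which is scaled to transcript length, over the 9 D libraries of all 3 days. The highest were Sparc at 1686 ± 319 TPM, a collagen-binding matricellular protein, Bgn (biglycan, a small leucine-rich proteoglycan) at 658.8 ± 117.6 TPM and Sparcl1, a relative of Sparc, at 580.4 ± 123.5 TPM. The lowest were Vcan (versican, a large hyaluronan-binding proteoglycan) at 2.01 ± 0.399 TPM, Col5a3, a minor chain of the fibrillar collagen V, at 2.21 ± 0.682 TPM and Col15a1, a collagen of the basement membrane zone, at 4.32 ± 1.66 TPM. Among chains of the same collagen, Col1a2 stood at 131.6 TPM and Col1a1 at 46.2 TPM, and Col4a1 stood at 223 TPM beside 158 TPM for Col4a2. Eln, which encodes the elastin core of elastic fibres, averaged 195 ± 73.3 TPM and ranged from 86.2 to 343 TPM.

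**Figure D1:**
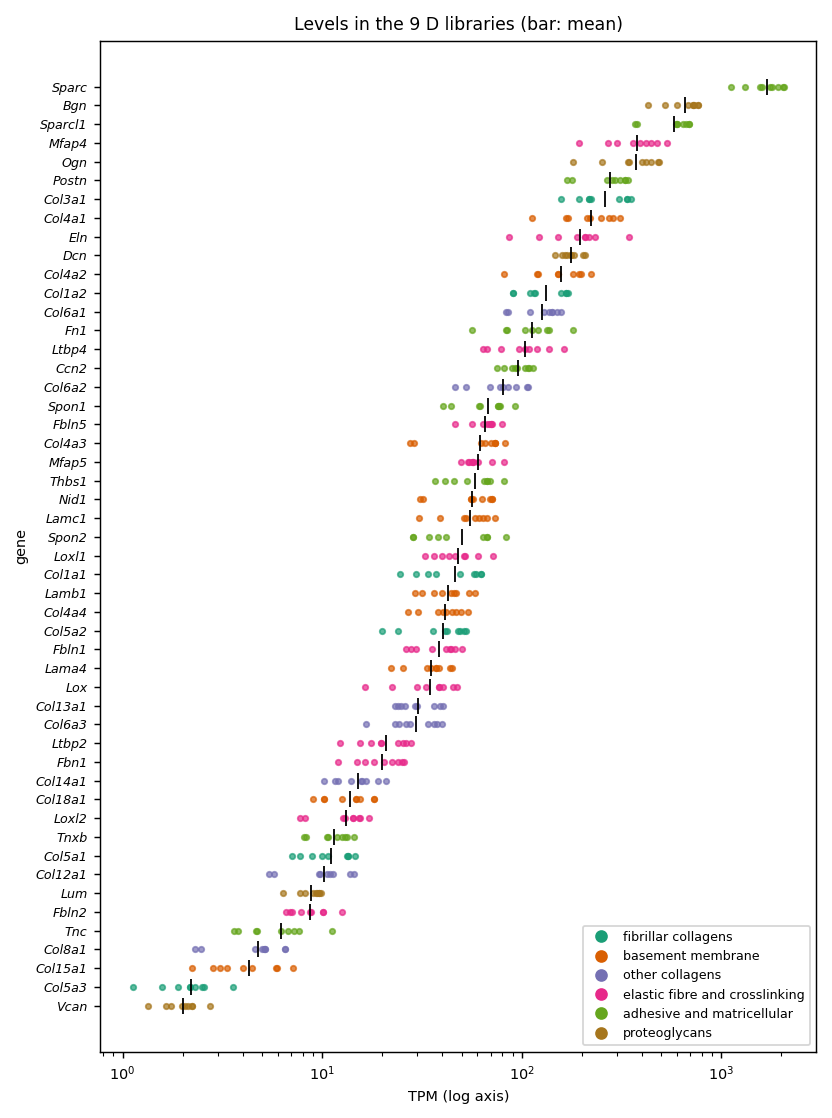
TPM (x axis, log scale) of each of the 50 genes (y axis, ordered by mean) in the 9 D libraries of days 1, 7 and 28, coloured by role; points are libraries and bars are means. Sparc, Bgn and Sparcl1 lie at the top and Col15a1, Col5a3 and Vcan at the bottom.

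The spread of a gene over all 36 libraries was mostly small. The highest CPM of a gene was a median of 2.57 times its lowest, and in 4 genes more than 5 times: Spon2 (14.4), Tnc (11.9), Thbs1 (7.52) and Vcan (7.35), named because they had the widest range. Spon2 (spondin 2, or mindin) is a secreted matrix protein that binds integrins and microbial surfaces. Tnc (tenascin C) and Thbs1 (thrombospondin 1) are matricellular proteins made in response to injury, and thrombospondin 1 can activate latent TGF-beta.

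Chains that assemble into one molecule were correlated to differing degrees across the 36 libraries, as a description of libraries that share groups, depth and tissue sampling. Pearson's r of log2 CPM was 0.987 for Col4a1 and Col4a2, the chains of the ubiquitous collagen IV, 0.907 for Col1a1 and Col1a2 of collagen I, and 0.911 for the laminin chains Lamb1 and Lamc1. Col4a3 and Col4a4, chains of the collagen IV of the alveolar and glomerular basement membrane, had r = 0.864, or 0.910 after group means were removed. Correlations were lower for Col6a1 with Col6a2 (0.807) and Col6a3 (0.477), chains of the microfibrillar collagen VI, and for Col5a1 with Col5a2 (0.614) of collagen V. Over all 1225 pairs of the 50 genes the median r was 0.305. Each collagen IV pair is divergently transcribed from a shared region: on chromosome 8 the annotated starts of Col4a1 (minus strand) and Col4a2 (plus strand) overlap by 22 bases, and on chromosome 1 those of Col4a4 (minus strand, 82586849) and Col4a3 (plus strand, 82586921) lie 71 bases apart. The stretch between the Col4a4 and Col4a3 starts is shown because Col4a3 was called in US at day 7 and Col4a4 came closest after it (RefSeq, GRCm38.p6, chr1:82586850-82586920, plus strand, 69.0% G or C, no capitals since no part is singled out):
Col4a4 to Col4a3: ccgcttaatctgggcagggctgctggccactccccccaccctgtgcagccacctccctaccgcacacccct

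The comparison of each size with its own D group used edgeR's quasi-likelihood test on the counts. The p-values were adjusted over all 16903 genes by the Benjamini-Hochberg method, and a gene is called when its adjusted p is under 0.05. Of the 50 matrix genes, 0 were called at day 1 for any size, 2 at day 7 in US, 0 at day 7 in S, 1 at day 7 in L, 0 at day 28 in US or S, and 1 at day 28 in L. Spon2 accounts for all of these but Col4a3 at day 7 in US. No fibrillar collagen passed in any comparison with D, and the median log2 fold change of the 6 fibrillar collagens lay between -0.24 (L, day 28) and 0.19 (L, day 1). Over all 27 comparisons made, 22 called 0 of the 50. In those 22, limma on log2(TPM + 1) also called 0 each, while DESeq2 called 0 in 18 and 1 in 4. Shares of all genes called are given for the main edgeR fit alone. Counts by DESeq2 or by other fits have no such background beside them and are not read as results about the matrix genes.

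**Figure D2:**
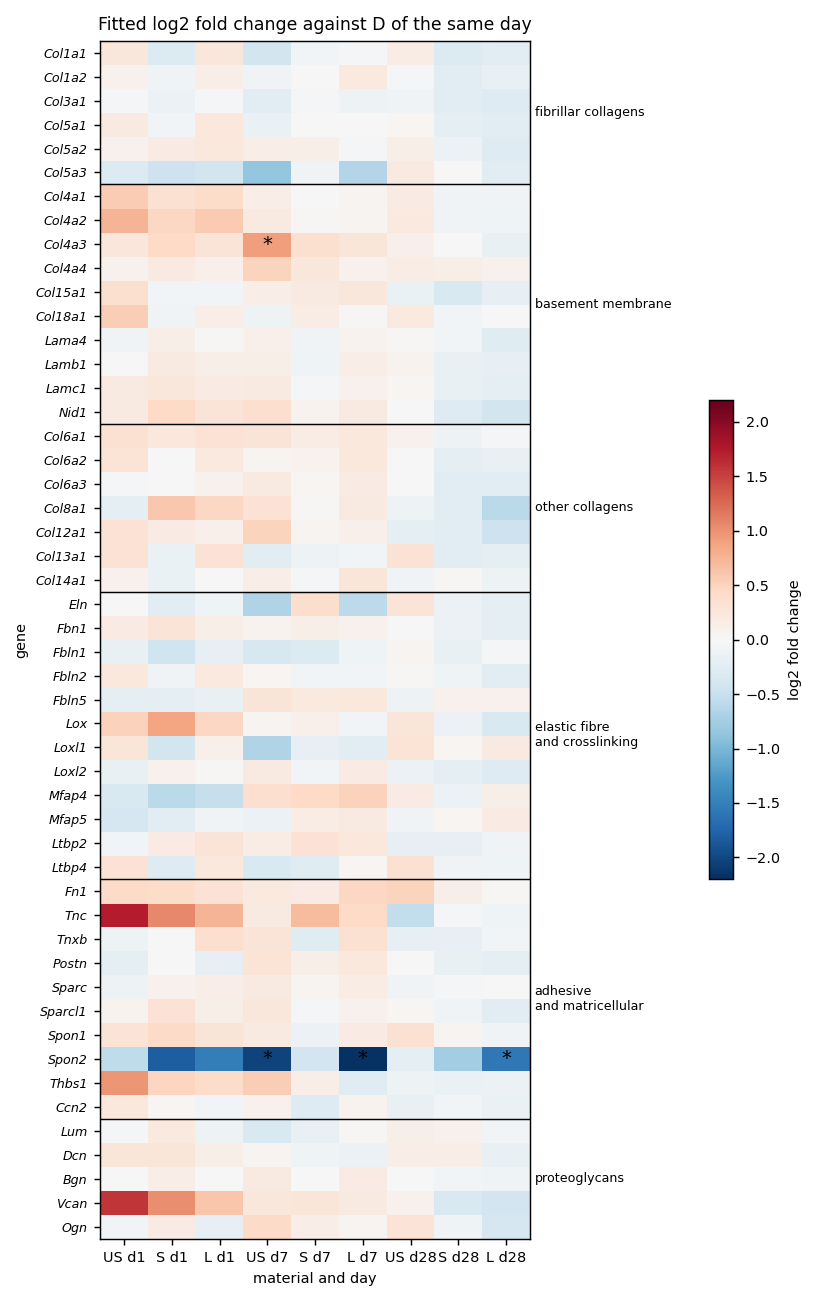
Fitted log2 fold change against D of the same day (colour) for the 50 genes (y axis, grouped by role) in the 9 comparisons of a size with D (x axis); stars mark adjusted p under 0.05. The stars are 3 for Spon2 (US and L at day 7, L at day 28) and 1 for Col4a3 (US at day 7).

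At day 1, Spon2 was low in the S and L lungs. It stood at 49.5, 60.0 and 59.6 CPM in D, 14.2, 16.8 and 15.3 CPM in S, and 21.8, 17.6 and 17.7 CPM in L. Every S and L library lay below every D library, yet neither difference passed: the log2 fold change was -1.82 ± 0.38 (standard error, SE) in S with adjusted p = 0.0603, and -1.52 ± 0.37 in L with adjusted p = 0.187. In US the libraries held 9.62, 62.3 and 40.0 CPM, with replicate 1 below every D library and replicate 2 above them (-0.55 ± 0.36, adjusted p = 0.453).

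Vcan, Tnc and Col4a2 had the smallest p-values in US at day 1, and Lox and Vcan followed Spon2 in S. Vcan stood at 8.73, 6.57 and 9.90 CPM in D and at 39.6, 10.3 and 21.2 CPM in US, all 3 above D (log2 1.57 ± 0.37, adjusted p = 0.0581). In S it stood at 8.82, 24.2 and 16.9 CPM, overlapping D (1.03 ± 0.37, adjusted p = 0.167). Tnc stood at 24.9, 17.5 and 27.5 CPM in D and at 161, 26.7 and 30.5 CPM in US, so that 1 library lay far above the rest (1.73 ± 0.54, adjusted p = 0.112). Lox, the lysyl oxidase that crosslinks collagen and elastin, stood at 77.3, 94.9 and 96.6 CPM in D and at 115.2, 177 and 181 CPM in S, without overlap (0.87 ± 0.28, adjusted p = 0.155). Col4a2 in US stood at 1461, 596 and 683 CPM beside 500.0, 491 and 720.0 CPM in D, overlapping (0.76 ± 0.29, adjusted p = 0.195), and in L at 0.57 ± 0.29 (adjusted p = 0.978). Col8a1, a short-chain collagen of vessel walls, had 0.45 ± 0.23 in L (adjusted p = 0.978).

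US day 1 replicate 1 was the highest of the 36 libraries for Vcan, Tnc, Thbs1, Lox and Col4a2. Thbs1 stood there at 708 CPM, against 141 and 212 CPM in the other US libraries and 194, 135.01 and 242 CPM in D. Without that library the US fold changes of Vcan, Tnc and Col4a2 were 0.95, 0.33 and 0.20 on the log2 scale, with adjusted p of 0.574, 0.921 and 0.911 by edgeR. Without US replicate 2 instead, 4 of the 50 genes were called, among them Vcan, Tnc and Col4a2 (log2 1.94, 2.14 and 1.00), and Vcan was called without US replicate 3 (1.66, adjusted p = 0.0464). Without S replicate 1 the S comparison called 3 genes, Spon2 (-1.76, adjusted p = 0.0351), Lox (1.05) and Vcan (1.34). Over all alternatives the adjusted p ran from 0.00426 to 0.574 for Vcan, 0.0203 to 0.921 for Tnc and 0.0469 to 0.911 for Col4a2 in US, and from 0.000771 to 0.305 for Spon2 in S. The same US replicate 1 had the highest neutrophil score of its group (1.83, against 0.13 and 0.63 on the log2 scale), the lowest fibroblast score of the 36 libraries (-0.31) and the highest smooth muscle and myofibroblast score (0.54). The fibroblast markers did not all go the way of their score. Pdgfra stood there at 634 CPM, its highest of the 36 libraries, against 416, 443 and 447 CPM in D. The 10 fibroblast markers, none at 0, summed to 2960.0 to 4161 CPM in US and 4245 to 4368 CPM in D, and the 8 smooth muscle markers to 504 to 739.9 CPM in US and 484 to 577 CPM in D. The 6 neutrophil markers, all detected, summed to 190.4 to 631 CPM in US against 141 to 189 CPM in D, 102.8 to 197 CPM in S and 178 to 190.0 CPM in L. Their part in the matrix values was not tested.

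By count, 0 of the 50 were called at day 1 in US, S or L by edgeR, where 0.0887%, 0.0473% and 0.0237% of all genes were called. At an unadjusted p under 0.05 by edgeR the counts were 7, 10 and 1 of the 50, beside 16.1%, 21% and 4.94% of all genes. DESeq2 called 1, 1 and 0. The median log2 fold change of the 50 was 0.14 in US, 0.12 in S and 0.14 in L, beside 0.01, -0.02 and 0.01 over all genes. By role the highest median was 0.30 for the 7 other collagens in US and the lowest -0.22 for the 12 elastic fibre and crosslinking genes in S, and the 10 basement membrane genes had 0.23, 0.23 and 0.16 in US, S and L.

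**Figure D3:**
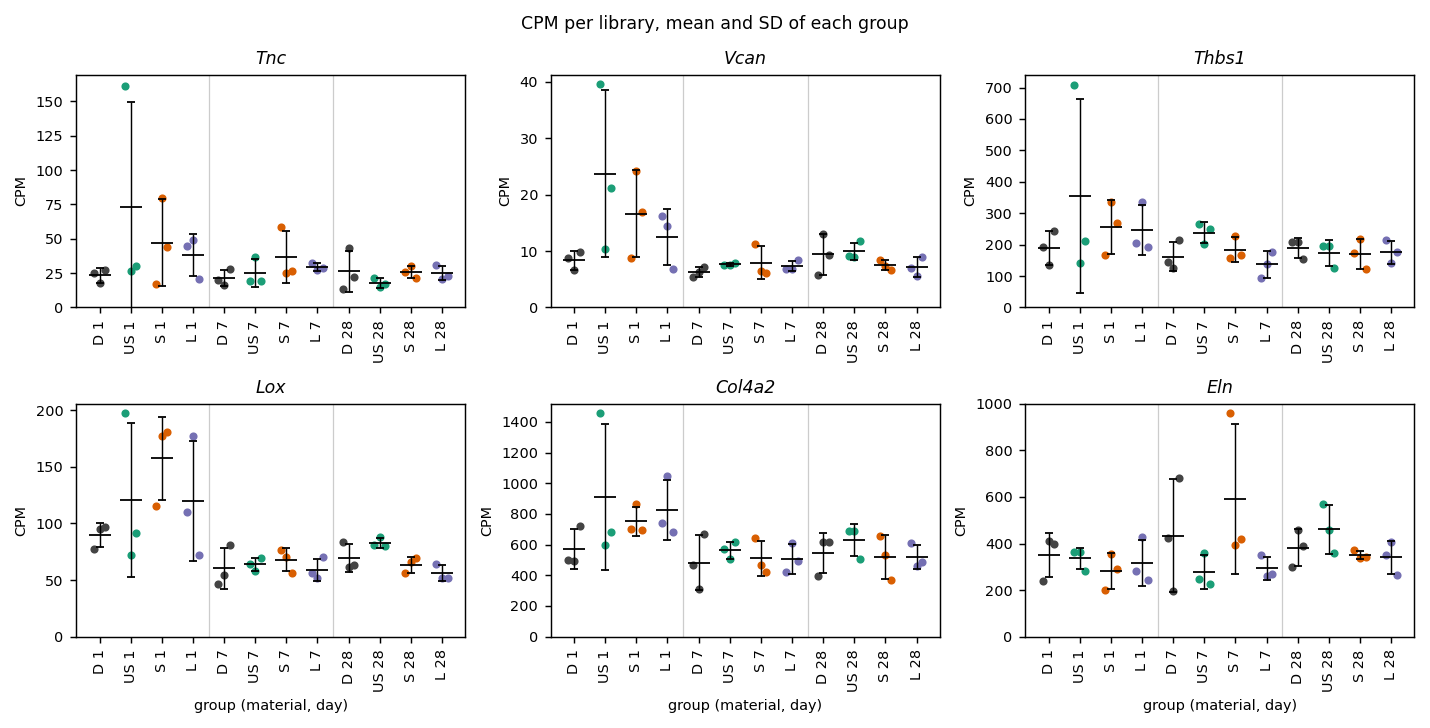
CPM per library (y axis) of Tnc, Vcan, Thbs1, Lox, Col4a2 and Eln in the 12 groups (x axis, material and day); points are libraries, horizontal bars means and whiskers SD. One US day 1 library is the highest of all 36 for each of Tnc (161 CPM), Vcan (39.6), Thbs1 (708), Lox (198) and Col4a2 (1461), while the highest Eln value (962) belongs to an S day 7 library.

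At day 7, Spon2 fell in both US and L lungs. It stood at 87.3, 56.0 and 113.7 CPM in D, at 19.5, 35.4 and 9.13 CPM in US and at 18.1, 18.5 and 21.1 CPM in L. All US and L libraries lay below all D libraries. Spon2 fell 4.12-fold in US (log2 -2.04 ± 0.38, adjusted p = 0.00589) and 4.51-fold in L (-2.17 ± 0.38, adjusted p = 0.00366). S lungs held 73.7, 64.5 and 59.8 CPM, within the range of D (-0.43 ± 0.35, adjusted p = 0.76). The call in US was lost without US replicate 3 (-1.69, adjusted p = 0.104) and that in L without D replicate 3 (-1.93, adjusted p = 0.0574), and each held in the other 5 fits that left out 1 library. Over all alternatives the adjusted p ran from 0.000173 to 0.391 in US and from 5.96e-05 to 0.588 in L.

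Col4a3 rose 1.90-fold in US at day 7. It stood at 144, 149 and 287 CPM in D and at 428, 210.4 and 472 CPM in US, so the groups overlapped through D replicate 3 and US replicate 2 (log2 0.92 ± 0.25, adjusted p = 0.0466). The call was lost in 4 of the 6 fits that left out 1 library: 0.76 without D replicate 1 (adjusted p = 0.321), 0.76 without D replicate 2 (0.151), 0.81 without US replicate 1 (0.169) and 0.69 without US replicate 3 (0.318). Over all alternatives its adjusted p ran from 0.00559 to 0.321. Its neighbour Col4a4 stood at 179, 161 and 247 CPM in D and at 310.5, 206 and 319.6 CPM in US, with the same libraries overlapping (0.49 ± 0.15, adjusted p = 0.0598). An antisense transcript, C430014B12Rik, covers 5.65% of the exonic bases of Col4a3, and the strand setting of the counting is not given in the sources used here. The ubiquitous chains Col4a1 and Col4a2 were not called in US.

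The next genes in order of p at day 7 were not called. In S the 3 smallest, none with an unadjusted p under 0.05, were Col4a4 (log2 0.25 ± 0.15, adjusted p = 0.63), Mfap4, a microfibril-associated protein of elastic fibres (0.44 ± 0.27, adjusted p = 0.662), and Ltbp2, a latent TGF-beta binding protein of microfibrils (0.32 ± 0.21, adjusted p = 0.693). In L they were, after Spon2, Col5a3 and Fn1 (fibronectin, the adhesive glycoprotein of provisional matrix). Col5a3 stood at 4.66, 4.94 and 4.07 CPM in L against 8.28, 4.46 and 8.55 CPM in D, overlapping in D replicate 2 (-0.65 ± 0.29, adjusted p = 0.965). Fn1 stood at 373, 407 and 435 CPM in L against 274, 226 and 378 CPM in D, also overlapping (0.45 ± 0.21, adjusted p = 1.00).

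By edgeR, US at day 7 thus had 1 of the 50 called higher and 1 lower, where 2.09% of all genes were called. In L, 0 were higher and 1 lower beside 0.154%, and in S 0 were called beside 0.45%. At an unadjusted p under 0.05 the counts were 7 in US, 3 in L and 0 in S, beside 25.7%, 4.87% and 9.33% of all genes. DESeq2 called 5, 1 and 0 of the 50. The count for US was 7 without D replicate 3, 6 without US replicate 2, 1 without D replicate 1, D replicate 2 or US replicate 1, and 0 without US replicate 3. The shares of all genes called by DESeq2 and in these fits are not given here. The median log2 fold change of the 50 was 0.15, 0.03 and 0.10 in US, S and L, beside 0.01, -0.01 and 0.00 over all genes.

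The D libraries of day 7, against which those 3 comparisons were made, differed among themselves in matrix genes. The basement membrane score of a library (the mean log2 CPM of the 10 genes, centred on all libraries) was -0.39, -0.67 and 0.11 in D at day 7. It lay between -0.12 and 0.28 in D at day 1, between -0.40 and 0.18 in S at day 7 and between -0.39 and -0.01 in L at day 7, so that D at day 7 overlapped each of these groups and only its replicate 2 lay below them all. In US at day 7 the score was -0.0044, -0.15 and 0.13. D replicates 1 and 2 of that day lay below every US library, and D replicate 3 lay within the US range. The fat cell markers summed to 31.5 to 56.5 CPM in D at day 7 and to 17.5 to 20.4 CPM in D at day 1, with 17.0 to 33.4 CPM over the 9 exposed libraries of day 7, and 5 of the 8 markers (Adipoq, Plin1, Lep, Retn and Adig) averaged under 1 CPM. With the fat score as a covariate, Spon2 kept its calls in US (log2 -2.27, adjusted p = 0.0317) and L (-2.32, adjusted p = 0.0146), and Col4a3 lost its call (0.95, adjusted p = 0.197).

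At day 28, Spon2 fell in L lungs. It stood at 111.9, 131.4 and 100.6 CPM in D and at 38.4, 48.1 and 32.0 CPM in L, well apart, a 2.96-fold fall (log2 -1.57 ± 0.37, adjusted p = 0.019). S lungs held 70.5, 69.6 and 64.6 CPM, also below every D library but not called (-0.76 ± 0.36, adjusted p = 0.48). US lungs held 118.2, 101.2 and 76.0 CPM and overlapped D (-0.20 ± 0.35, adjusted p = 0.982). The call in L was lost without D replicate 2 (-1.46, adjusted p = 0.0856), without L replicate 1 (-1.55, adjusted p = 0.0865) and without L replicate 3 (-1.44, adjusted p = 0.134), with a range over all alternatives of 0.000952 to 0.971.

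Collagens were not called in any size at day 28. Col8a1 stood at 10.6, 9.29 and 12.8 CPM in L and 17.7, 13.7 and 16.9 CPM in D, without overlap (log2 -0.59 ± 0.24, adjusted p = 0.197). Col12a1, a collagen that sits on the surface of collagen I fibrils, stood at 63.1, 43.6 and 53.6 CPM in L and 60.3, 82.1 and 74.6 CPM in D, overlapping (-0.46 ± 0.19, adjusted p = 0.205). In US, Fn1 (0.49 ± 0.21, adjusted p = 0.788), Spon1 (spondin 1, 0.34 ± 0.17, adjusted p = 0.836) and Ogn (osteoglycin, a small leucine-rich proteoglycan, 0.30 ± 0.19, adjusted p = 0.896) had the smallest p-values. In S, after Spon2, these were Loxl2, a lysyl oxidase relative (-0.21 ± 0.15, adjusted p = 0.669), and Nid1, the nidogen that links laminin to collagen IV (-0.28 ± 0.20, adjusted p = 0.67).

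The 50 genes at day 28 had 0, 0 and 1 calls in US, S and L, the 1 being lower, where 0.0237%, 0.237% and 2.15% of all genes were called. The share of 2% in L is near that background. At an unadjusted p under 0.05 by edgeR there were 1, 1 and 3 members, beside 6.02%, 9.87% and 16.7% of all genes. DESeq2 called 0, 0 and 1. The median log2 fold change was 0.05 in US, -0.12 in S and -0.17 in L, beside 0.01, 0.00 and 0.00 over all genes. In L, 44 of the 50 fitted values were negative, in S 41, and in US 19, where the share of positive values over all genes was 50.0%, 50.1% and 53.2%. The 8 smooth muscle and myofibroblast markers, none at 0, summed to 431 to 462 CPM in L and 471 to 479.9 CPM in S, all below the 496 to 548 CPM of D, and to 473 to 538 CPM in US, overlapping D. Their part in the matrix values was not tested. The 50 genes were correlated with one another (median r 0.305), so these signs are not independent. The 3 comparisons share their D libraries, of which replicate 1 had a mean score over the 50 genes of -0.22 and replicates 2 and 3 of 0.24 and 0.17 on the log2 scale. That score was 0.03, -0.21 and -0.05 in L, 0.12, 0.05 and -0.30 in S and 0.24, 0.15 and -0.03 in US, so each size overlapped D.

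**Figure D4:**
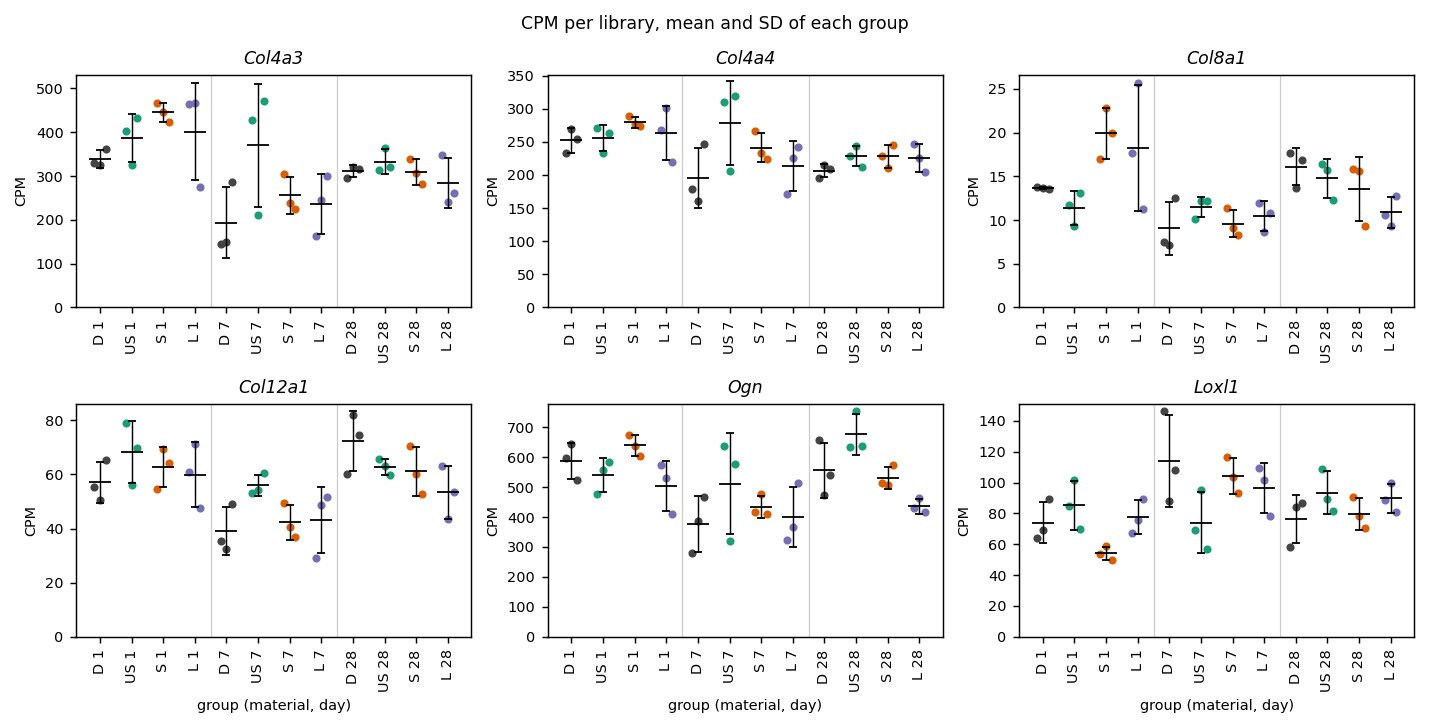
CPM per library (y axis) of Col4a3, Col4a4, Col8a1, Col12a1, Ogn and Loxl1 in the 12 groups (x axis, material and day); points are libraries, horizontal bars means and whiskers SD. In D at day 7, 2 of 3 libraries are low for Col4a3 (144 and 149 CPM), Col8a1 (7.52 and 7.10) and Col12a1 (35.5 and 32.6), and Loxl1 is highest there (146).

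Pairs of sizes were compared as direct contrasts of the same fit, in which D libraries entered the estimate of the spread but not the difference. Spon2 was 3.36-fold lower in L than in S at day 7 (log2 -1.75 ± 0.37, adjusted p = 0.0442), with every L library (18.1 to 21.1 CPM) below every S library (59.8 to 73.7 CPM). It was the only one of the 50 called between sizes. The call was lost in each of the 6 fits that left out 1 library, with log2 values from -1.80 to -1.67 and adjusted p from 0.101 to 0.283 (0.141, 0.121 and 0.117 without S replicate 1, 2 and 3, and 0.283, 0.264 and 0.101 without L replicate 1, 2 and 3). Over all alternatives its adjusted p ran from 0.000623 to 0.841. S against US at day 7 gave 1.62 ± 0.37 (adjusted p = 0.0672) and L against US -0.13 ± 0.38 (adjusted p = 0.89).

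Background shares for these comparisons by edgeR were low. For S against US, L against US and L against S, 0.0177%, 0% and 0% of all genes were called at day 1, 0.142%, 0.00592% and 0.154% at day 7, and 0%, 0.515% and 0.0651% at day 28. Of the 50 genes 0 were called in 8 of the 9 comparisons, with 1 to 8 at an unadjusted p under 0.05 in each. Of all genes, 3.76% to 15% had such a p. DESeq2 called 1 in S against US at day 7 and 1 in L against US at day 28, and 0 in the other 6. In L against US at day 28, all 8 of the 50 at p under 0.05 were lower in L, beside 11.3% of all genes at that p in either direction. Spon2 at -1.36 ± 0.36 (adjusted p = 0.0866) and Ogn at -0.67 ± 0.19 (adjusted p = 0.105) came first. Spon2 was called in S against US at day 1 without US replicate 1, and at day 7 without US replicate 2.

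Carrier lungs were also compared over time. Between days 7 and 28, which are also 10 and 13 weeks of age, Col12a1 rose 1.85-fold, from 35.5, 32.6 and 49.1 to 60.3, 82.1 and 74.6 CPM (log2 0.89 ± 0.19, adjusted p = 0.0192). Col8a1 rose 1.77-fold, from 7.52, 7.10 and 12.5 to 17.7, 13.7 and 16.9 CPM (0.83 ± 0.24, adjusted p = 0.0287). Ogn rose 1.47-fold, from 278, 389 and 466 to 656, 473 and 542 CPM (0.56 ± 0.19, adjusted p = 0.042). Loxl1, the crosslinking enzyme that elastic fibres need for their upkeep, fell 1.49-fold, from 146, 87.9 and 107.9 to 58.5, 83.9 and 86.9 CPM (-0.58 ± 0.19, adjusted p = 0.0433). None of the 4 overlapped between the 2 days. In D at day 1 the means were 57.1 CPM for Col12a1, 13.7 for Col8a1, 587.8 for Ogn and 73.96 for Loxl1. For day 28 against day 1 the log2 fold changes were 0.35, 0.24, -0.06 and 0.06 in that order, none called. For day 7 against day 1 they were -0.54, -0.58, -0.62 and 0.63, also none called (edgeR adjusted p = 0.137, 0.151, 0.137 and 0.137). Loxl1 libraries overlapped between those days. The mean of each gene at day 7 thus lay beyond its means on both other days, but only the difference from day 28 was called. The 4 genes were named because of that call. The part of age was not tested.

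These 4 are 8% of the 50 genes, under the 15.6% of all genes called by edgeR in that comparison. DESeq2 called 6. The count was 0 without D day 7 replicate 1 or 2 or D day 28 replicate 2 or 3, 1 without D day 28 replicate 1 and 12 without D day 7 replicate 3, and it was 0 with the fat score or the clock score as a covariate. D at day 7 against day 1 called 0 of the 50 beside 0% of all genes. Of the 50, 11 had an unadjusted p under 0.05 (10 lower), beside 24.2% of all genes. DESeq2 called 0, and 13 were called by edgeR without D day 7 replicate 3. Shares over all genes are not given here for DESeq2 or for fits that left out a library. D at day 28 against day 1 called 0 beside 0.0769%, and 0 by DESeq2. There 1 had a p under 0.05 (Spon2, 1.04 ± 0.36, adjusted p = 0.545), beside 5.4% of all genes.

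Whether a size's effect differed between days was tested as an interaction. For day 7 minus day 1, edgeR called 0 of the 50 in US, S and L beside 0.136%, 0% and 0% of all genes. At an unadjusted p under 0.05 there were 5, 3 and 1, beside 15%, 9.79% and 3.33% of all genes. For day 28 minus day 1 edgeR called 0 beside 0.0473%, 0.195% and 0.243%. There were then 2, 5 and 3 at p under 0.05, beside 10.8%, 21.1% and 12.5% of all genes. DESeq2 called 0 in all 6. Spon2 was called in US for day 7 minus day 1 without US day 1 replicate 1, and Col8a1 in L for day 28 minus day 1 without L day 1 replicate 3. For Spon2 the effect of US at day 7 minus that at day 1 was -1.49 ± 0.51 (adjusted p = 0.179), and that of S was 1.39 ± 0.52 (adjusted p = 0.408). A Tnc value of -2.28 ± 0.76 for US at day 28 minus day 1 (adjusted p = 0.293) draws on the US day 1 library at 161 CPM.

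Spon2 (ENSMUSG00000037379) lies on the minus strand of chromosome 5 at 33198184 to 33218455 in GRCm38, exons and introns included. In the order of group means its CPM ran from S and L at day 1 (15.4 ± 1.32 and 19.0 ± 2.38) through L and US at day 7 (19.3 ± 1.64 and 21.3 ± 13.2), US at day 1 (37.3 ± 26.4), L at day 28 (39.5 ± 8.08), D at day 1 (56.4 ± 5.99), S at day 7 and 28 (66.01 ± 7.07 and 68.2 ± 3.15) and D at day 7 (85.7 ± 28.9) to US and D at day 28 (98.5 ± 21.2 and 114.65 ± 15.6). Neighbours in this order overlapped in their libraries except S and L at day 1, and L at day 28 and D at day 1.

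Most, but not all, of 13 genes of the circadian clock moved with Spon2. Across the 36 libraries, which share groups and days, r of its log2 CPM was -0.955 with Tef and -0.897 with Per3, clock genes that peak together, and 0.915 with Npas2 and 0.846 with Arntl, which peak in opposite phase. It was 0.15 with Clock and -0.065 with Ciart. With group means removed r was -0.817 for Tef and 0.649 for Npas2, but -0.15 for Dbp and 0.146 for Nr1d1, which had -0.736 and -0.652 before. A clock score was taken from log2 levels, by subtracting the mean of Arntl, Npas2 and Clock from the mean of Dbp and the 9 clock genes that peak near it. It correlated with Spon2 at r = -0.865 (rho = -0.875), at -0.845 without the 2 libraries farthest from the median score, and at -0.507 within groups. Of all tested genes, 0.0947% had a correlation at least as large in size. These genes include Spon2 itself and the 13 genes that make up the score, so the share is not an independent background.

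The score followed the groups in which Spon2 was low. Its mean was 2.17 ± 0.49 in US and 2.26 ± 0.20 in L at day 7, against -0.64 ± 0.72 in D and -0.46 ± 0.20 in S. At day 28 it was 0.53 ± 0.24 in L against -2.22 ± 0.14 in D, and at day 1 0.97 ± 0.84 in S and 1.24 ± 0.92 in L against -0.42 ± 0.16 in D. All 13 clock genes were detected, and they summed to 542 to 661 CPM in D and 1168 to 1647 CPM in US at day 7. Of the 13, edgeR called 8 higher and 2 lower in US and 7 higher and 2 lower in L at day 7, and 7 higher and 3 lower in L at day 28, with Npas2 at log2 -2.78, -2.60 and -1.89.

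With the clock score as a covariate, an alternative chosen after the data were seen, Spon2 was not called in any of its 4 comparisons. Its log2 fold change was then -0.73 in US at day 7 (adjusted p = 0.391), -0.74 in L at day 7 (0.588), -0.25 in L at day 28 (0.971) and -0.43 in L against S at day 7 (0.841). The labels used here give no hour of collection, so material and hour cannot be told apart.

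**Figure D5:**
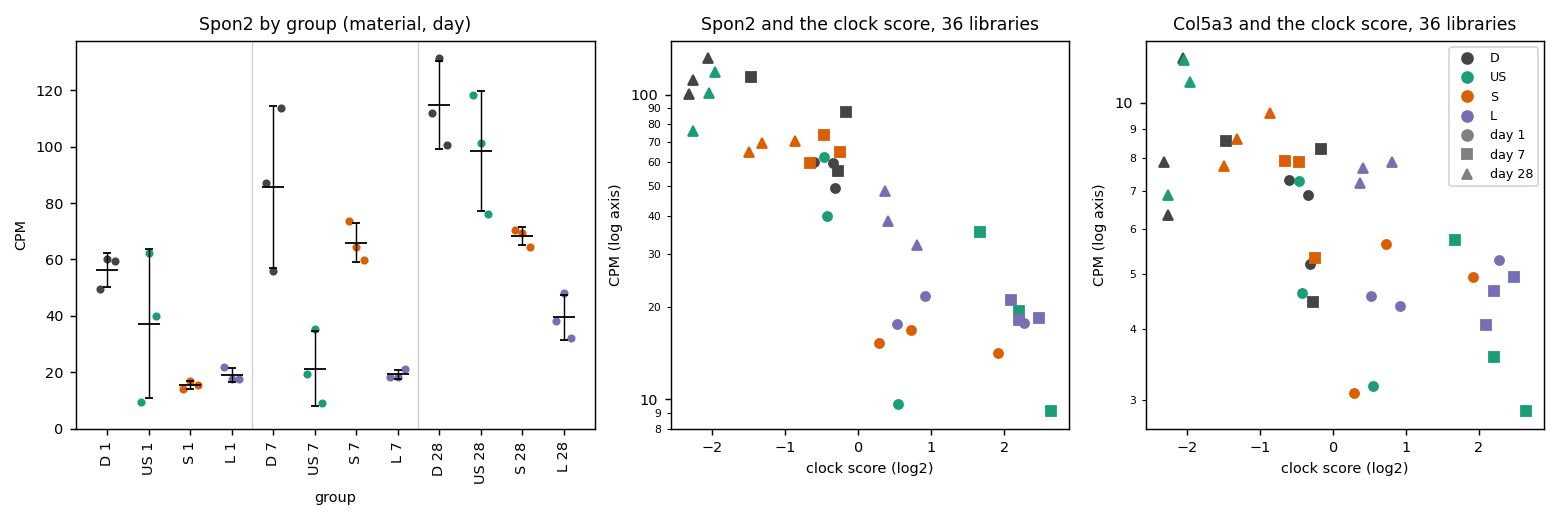
Left, CPM of Spon2 (y axis) in the 12 groups (x axis), with points for libraries, horizontal bars for means and whiskers for SD. Middle and right, CPM of Spon2 and Col5a3 (y axes, log scale) against the clock score (x axis, log2 units) in the 36 libraries, with colours for material and shapes for day; both are lower where the score is higher (r = -0.865 and -0.70).

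After Spon2, Col5a3 had the largest correlation in size with the clock score among the 50 genes. Its log2 CPM correlated with that of Spon2 at r = 0.839 over the 36 libraries (0.694 within groups) and with the clock score at r = -0.70 (-0.121 within groups). Its group means ran from 4.05 ± 1.49 CPM in US at day 7 to 9.89 ± 2.64 CPM in US at day 28, and it was called in 0 comparisons. Eln had r = -0.514 with the score and Tnxb, a tenascin that organises collagen fibrils, 0.509. These 4 of the 50 genes, 8%, had a correlation over 0.5 in size, against 2.76% of all tested genes. As a set the 50 did not stand out: the median size of r with the score was 0.141, beside 0.149 over all tested genes. Spon2 and its namesake Spon1 did not move together (r = -0.423).

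Short motifs bound by clock factors were counted in RefSeq promoter windows of 250 bases before to 50 after a start (GRCm38.p6). Such windows were at hand for 29 of the 50 genes. Spon2 was not among them, so its promoter was not searched. The E-box CACGTG, on either strand, was found in 1 of the 29 (Fbln1), or 3.45%, against 7.24% of 27025 promoters. TTATGTAA was found in 0 of 29 against 0.955%, and AGGTCA in 3 (Col4a4, Postn and Tnxb), or 10.3%, against 16.04%. These letters describe the windows only.

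Genes around the matrix pathway, taken from further lists, were called as follows. Over all genes, the called share was 0.154% in L at day 7 and 2.15% in L at day 28, the only comparisons with D that called a gene of these 4 lists. Of 21 TGF-beta ligands, receptors and transducers, 0 were called in 8 of the 9 comparisons with D, and 1 fell in L at day 28, Skil, a repressor of TGF-beta signalling (log2 -0.50 ± 0.13, adjusted p = 0.0374). The ligands were not called in any of the 9: Tgfb1 ran from -0.52 (US, day 7, adjusted p = 0.0974) to 0.29, Tgfb2 from -0.13 to 0.33 and Tgfb3 from -0.30 to -0.01. Of 18 genes of collagen synthesis and processing, 1 fell in L at day 28, P4ha1, a subunit of the prolyl hydroxylase that stabilises the collagen helix (-0.76 ± 0.15, adjusted p = 0.00419), and 0 were called in the other 8 comparisons. Of 15 matrix receptors 0 were called in all 9.

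Matrix proteases were called in L. Of 20 proteases and inhibitors, 1 rose in L at day 7, Mmp12, the macrophage elastase (log2 4.57 ± 0.49, adjusted p = 4.82e-06), from 4.05, 4.84 and 7.28 CPM in D to 211, 54.8 and 121.8 CPM. In L at day 28, 3 rose and 1 fell. Mmp12 rose 35.2-fold (5.14 ± 0.49), from 6.35, 7.35 and 8.84 to 407, 113.2 and 287 CPM, and Ctsk (cathepsin K, a collagenase and elastase) rose 4.34-fold (2.12 ± 0.39). Adamts5, a protease that cleaves versican and aggrecan, fell 1.72-fold (-0.78 ± 0.12). Eln RNA, which encodes the elastin that Mmp12 cleaves, was not called in L at day 7 or 28. RNA levels do not measure cleavage of the protein. The other 7 comparisons with D called 0 of the 20.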

How the data were processed

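RNA of 36 lung samples was sequenced on a HiSeq2500, per the labels' protocols. The authors deposited unnormalised counts of reads for Ensembl genes in 1 table, and the deposited per-library tables hold TPM, FPKM and coverage signal by the authors, of which FPKM and coverage entered no result. The submitters' processing notes name bcl2fastq 2.19.1.403, CASAVA, STAR 2.5.1b, featureCounts 1.5.1, StringTie 1.3.3 and the builds GRCh37 and GRCm38, without roles. Scaffold names in the files are those of GRCm38. For the annotation release and the strand setting, nothing is stated in the sources used here. Carbon nanotube and day 90 samples were not analysed here.

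The counts were tested in R 4.3.3 with edgeR 4.0.16 (filterByExpr, which kept 16903 genes, TMM scaling, glmQLFit over all 12 groups, glmQLFTest contrasts), with Benjamini-Hochberg adjustment over all genes in each of 27 comparisons and a threshold of 0.05. The code was tested on simulated data. The smallest chi-square per degree of freedom between libraries of a group was 6.16, so no library was a duplicate. CPM values and scores used the total count of each library without TMM scaling, which entered the edgeR fits and the replicate correlations. Scores are mean log2(CPM + 0.5) of a list, centred over the libraries.

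The 50 genes, the further lists and the tests were chosen with earlier results of these data known. Genes are named if called in any comparison, if among the 3 smallest p-values against D, or if among the 3 highest or lowest TPM, and further genes are named where the text says why or to give the context of these. Alternatives were RLE size factors, no filter, DESeq2 1.42.0, limma 3.58.1 on log2(TPM + 1) and log2(TPM + 0.1) for genes with a mean TPM of at least 1, a fit to the compared groups alone, a replicate block and leaving out each library. GC and length offsets, a clock score and a fat score as covariates were added after seeing the data. Sequences and promoter windows are from RefSeq, GRCm38.p6. Annotated gene starts, exonic overlaps, and the transcript lengths and GC content behind the offsets are from the GENCODE M21 annotation of GRCm38.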

Additional observations from a re-analysis of the deposited data

Results flagged for a closer look

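The log2 difference of Spon2 between L and S lungs at day 7 was -1.75 (adjusted p = 0.0442 by edgeR's quasi-likelihood test). It is listed because the direct test of 2 sheet sizes passed the threshold while all L libraries lay below all S libraries. The call was lost in each of the 6 fits without 1 library, with adjusted p from 0.101 to 0.283.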

How the results depend on the processing

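Of 468 counts of called members recomputed, 402 stayed within 1.5 times the main count and 66 moved. Of 560 values of single genes, 471 kept their direction and side of the threshold, 66 lost the call, 21 gained one and 2 reversed: Col8a1 in L at day 28 was 0.13 with the clock score as a covariate, and Col12a1 in L at day 28 was 0.0059 by limma on log2(TPM + 1). The cause was not tested. Calls against D: in US at day 1 (0) 1 without the filter, 1 by DESeq2 and 1 with GC and length offsets; in S at day 1 (0) 1 without the filter, 1 by DESeq2, 4 with only the groups compared and 2 with the clock score; in L at day 1 (0) 1 without the filter and 1 with only the groups compared. In US at day 7 (2) they were 1 with the replicate block, 5 by DESeq2, 0 with only the groups compared, 1 by limma with either pseudocount and 1 with the clock or fat score. With the clock score they were 0 in L at day 7 (1) and 0 in L at day 28 (1), and with only the groups compared 1 in S at day 28 (0). Between sizes: S against US at day 1 (0) 3 with the clock score; S against US at day 7 (0) 1 without the filter and 1 by DESeq2; L against S at day 7 (1) 0 with the replicate block, clock or fat score; L against US at day 28 (0) 1 without the filter, 1 by DESeq2, 3 with only the groups compared and 2 with GC and length offsets. D at day 28 against day 1 (0) gave 1 with only the groups compared, D at day 28 against day 7 (4) gave 2 with only the groups compared, 2 by limma on log2(TPM + 1), 1 with GC and length offsets and 0 with the clock or fat score, and the S effect at day 28 minus day 1 (0) gave 5 with only the groups compared.

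Leaving out 1 library at a time, the counts ran from 0 to 4 in US and 0 to 3 in S at day 1, 0 to 7 in US and 0 to 1 in L at day 7, 0 to 1 in L at day 28, 0 to 1 for S against US at days 1 and 7, 0 to 0 for L against S at day 7, 0 to 13 for D at day 7 against day 1, 0 to 12 for D at day 28 against day 7, and 0 to 1 for the US effect at day 7 minus day 1 and the L effect at day 28 minus day 1. Replicate numbers pair nothing the labels name: in 0 of 21 comparisons did all 3 same-numbered pairs deviate together by a correlation over 0.1 (range -0.477 to 0.371). With the replicate block Col4a3 in US at day 7 had adjusted p = 0.0533 and Spon2 in L against S at day 7 had 0.0515 by edgeR, and D at day 28 against day 7 gave 3 calls. At 3 libraries a group the median standard error of the log2 fold change was about 0.21 between groups and about 0.30 for the interactions. This limits what could be called, most of all for the interactions.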
